A study of Homo sapiens with 15 samples.

Results

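S100 proteins are small calcium-binding proteins, and 10 of the S100 genes were described here in A549 cells across 5 groups of 3 RNA-seq libraries. The 10 rows, of 26475 gene rows in all, were S100A10, S100A11, S100A4, S100A6, S100P, S100A13, S100A16, S100A3, S100A2 and S100A14. They were chosen by name with results of these data already known, and they are also the 10 of 21 S100 rows with the most counts over all libraries. The lowest of them, S100A14, had 36 counts in all, and the highest S100 row outside the list, S100A9, had 30. Of the 10, 9 passed the filter on low counts, and S100A14 was not tested. No other S100 row passed it. The calls given below are read from a fit of all 12795 genes tested. They describe the members, and since the members were chosen with results known they are no independent evidence of a change in the family.

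A549 is a human lung adenocarcinoma line, described by its labels as resembling the alveolar type II cell. Untreated cells were compared with cells given interleukin 4 (IL4) at 10 ng/ml alone, IL4 with Compound A, IL4 with a non-targeting control siRNA pool, or IL4 with an siRNA pool against ALOX15. ALOX15 encodes the lipoxygenase 15-LOX-1, which IL4 is known to induce. The labels give 48 h of treatment and 1 uM of the ALOX15 siRNA. The chemical identity and dose of Compound A are not given in the sources used here. Apart from the untreated cells, every group had received IL4. All libraries come from 1 established line, and whether the 3 libraries of a group came from separate cultures is not stated.

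An S100 protein is a dimer with a pair of EF-hand calcium-binding loops in each chain. Binding of calcium exposes a hydrophobic face that docks onto a partner, often an annexin or a cytoskeletal protein, so the family couples calcium signals to membranes, motility and growth. Some S100 proteins are also released from cells and act on receptors such as RAGE. Most S100 genes lie in 1 cluster on chromosome 1, in the epidermal differentiation complex.

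Total counts ran from 6407936 to 11031246 per library, with a median of 7442934. Levels are given as CPM, the counts per 1000000 counts of the library, after TMM scaling of library size, which makes libraries comparable but does not account for gene length. Levels of ALOX15 followed the labels: the mean was 0.136 CPM in untreated cells, 5.27 with IL4, 3.57 with IL4 and control siRNA, and 0.257 with IL4 and ALOX15 siRNA. With Compound A it was 2.21 CPM. All 5 epithelial markers passed the filter, and their summed level over the libraries, 5170 to 10500 CPM, differed by group as given beside the results. Of 10 alveolar type II markers, ABCA3 and LAMP3 passed the filter, SFTPB and SLC34A2 were at 0 in every library, and SFTPC had 3 counts in all. Of the 6 leukocyte markers, PTPRC, CD3E and CSF1R were at 0 in every library, and the list summed to 0.272 to 1.52 CPM. The 4 endothelial markers summed to 0 to 0.819 CPM. IL4 replicate 1 stood apart from its group: its root mean square deviation from the group mean over all tested genes was 0.272 on the log2 scale, against 0.169 to 0.219 in the other 14 libraries. For the members, results that rest on it are given with and without it. Results of the other gene lists are given only with it in the fit.

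On the GENCODE annotation of GRCh38, 9 of the members lie on chromosome 1 and S100P lies on chromosome 4, at chr4:6693069-6697170 on the plus strand. The 9 fall inside chr1:151982915-153632039, an interval of 1649125 bases, and all are on the minus strand. S100A10 and S100A11 are at one end of it, at chr1:151982915-151994390 and chr1:152032506-152047907. The other 7 lie close together: S100A6 at chr1:153534599-153536244, S100A4 at chr1:153543613-153550136, S100A3 at chr1:153547329-153549372, S100A2 at chr1:153561108-153567890, S100A16 at chr1:153606886-153613145, S100A14 at chr1:153614255-153616986 and S100A13 at chr1:153618787-153631360. The 2044 bases of S100A3 fall wholly within the span of S100A4 on the same strand, and the exons of the pair share no base. S100A13 shares 235 exon bases with S100A1 on the opposite strand. Whether the counting used strand is not given in the sources used here, so reads from S100A13 and S100A1 in that stretch could not be told apart. S100A1 had 26 counts in all libraries together. S100A6 shares 23 exon bases with an annotated antisense transcript. S100A13 also shares 536 exon bases with AL162258.1, an annotated processed transcript on its own strand. Strand could not separate reads in that overlap.

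S100A3, S100A10 and S100A11 are the members that rose with IL4, and the 250 bases before their RefSeq gene starts (GRCh38.p14, minus strand, 5′ to 3′) are shown to set their promoters side by side. The windows are chr1:153549259-153549508, chr1:151993860-151994109 and chr1:152037005-152037254. Capitals mark matches to 4 motifs searched on both strands: TTC and GAA with 4 bases between them, the spacing bound by STAT6, the factor that IL4 activates; TTC and GAA with 3 bases between them, the spacing bound by other STAT proteins; TGANTCA for AP-1; and TATAAA.
S100A3: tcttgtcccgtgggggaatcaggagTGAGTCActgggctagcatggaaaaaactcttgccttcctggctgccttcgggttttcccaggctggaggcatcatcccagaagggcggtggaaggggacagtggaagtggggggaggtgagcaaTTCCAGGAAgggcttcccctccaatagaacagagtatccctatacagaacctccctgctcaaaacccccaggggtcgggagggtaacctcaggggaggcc
S100A10: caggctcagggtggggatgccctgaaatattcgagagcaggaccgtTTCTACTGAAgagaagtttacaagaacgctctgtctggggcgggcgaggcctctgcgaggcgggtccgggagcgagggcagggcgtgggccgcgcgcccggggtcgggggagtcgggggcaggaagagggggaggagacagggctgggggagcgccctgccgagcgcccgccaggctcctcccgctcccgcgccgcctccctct
S100A11: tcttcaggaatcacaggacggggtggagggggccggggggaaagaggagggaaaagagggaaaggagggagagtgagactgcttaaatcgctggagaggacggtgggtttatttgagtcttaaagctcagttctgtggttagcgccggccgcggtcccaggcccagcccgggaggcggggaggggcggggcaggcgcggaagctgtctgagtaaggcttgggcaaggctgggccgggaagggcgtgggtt
S100A3 held TTCCAGGAA from position -100 and TGAGTCA from position -225, counted from the gene start. S100A10 held TTCTACTGAA from position -204. S100A11 held none of the 4 motifs, and no match overlapped another. The S100A10 window was the richest in G and C, at 71.2%, with 24 CpG sites, against 58.4% and 4 CpG sites for S100A3.

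Over the members' 14 RefSeq promoters of 300 bases (250 before the start and 50 after), the STAT6 spacing occurred in 2, those of S100A10 and S100P. It occurred in 6.44% of all 35116 promoters in that table. The spacing of other STAT proteins occurred in 1 of the 14, that of S100A3, against 7.66% of all promoters. TGANTCA occurred in 2 of the 14, 1 each of S100A3 and S100A2, against 7.71% of all promoters. TATAAA occurred in 3 of the 14, 1 each of S100A4, S100A13 and S100P, against 11.5% of all promoters. A match is a run of letters and was not tested for binding.

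Scaled by transcript length, the untreated cells held most S100A6, at 678 ± 72 CPM per kb (SD, n = 3). S100A4 followed at 477 ± 53, S100A10 at 357 ± 12 and S100A11 at 330 ± 8.4 CPM per kb. These 4 genes together gave 88.3% of the S100 counts over all libraries. Then came S100A16 at 100 ± 7.8, S100P at 45.6 ± 7.8, S100A13 at 36.8 ± 4.4 and S100A3 at 7.05 ± 0.67 CPM per kb. S100A2 stood at 1.25 ± 0.71 and S100A14 at 0.59 ± 0.4 CPM per kb. In that order, S100A2 and S100A14 were the only neighbours whose untreated libraries overlapped. The order depends on the lengths used, which are medians over GENCODE transcripts. For S100P this is 1 transcript of 1279 bases. The window before its RefSeq start ends at chr4:6693877, inside the GENCODE gene, and a shorter transcript would place S100P higher. With IL4 alone S100A10 and S100A11 were at 470 ± 38 and 460 ± 38 CPM per kb, and their libraries overlapped. With Compound A the order of this pair was reversed, S100A11 at 393 ± 6.7 above S100A10 at 352 ± 16 CPM per kb, without overlap. With control siRNA S100A11 was at 429 ± 19 and S100A10 at 426 ± 8.9 CPM per kb, with overlap. In CPM, without scaling by length, S100A10 was above S100A11 in every group.

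The remaining 11 S100 rows were close to silent. S100A9, S100A5, S100A1 and S100A7 had 86 counts between them, and 7 were at 0 in every library: S100A7A, S100A7L2, S100A8, S100A12, S100B, S100G and S100Z. The calprotectin pair S100A8 and S100A9, a product of myeloid cells and inflamed epithelium, was thus almost absent in all 5 groups. The 10 members together took 0.144% ± 0.013 of the counts in untreated cells, 0.168% ± 0.011 with IL4, 0.142% ± 0.0059 with Compound A, 0.161% ± 0.0052 with control siRNA and 0.174% ± 0.0025 with ALOX15 siRNA (SD, n = 3 each). The shares are a description and were not tested.

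**Figure D1:**
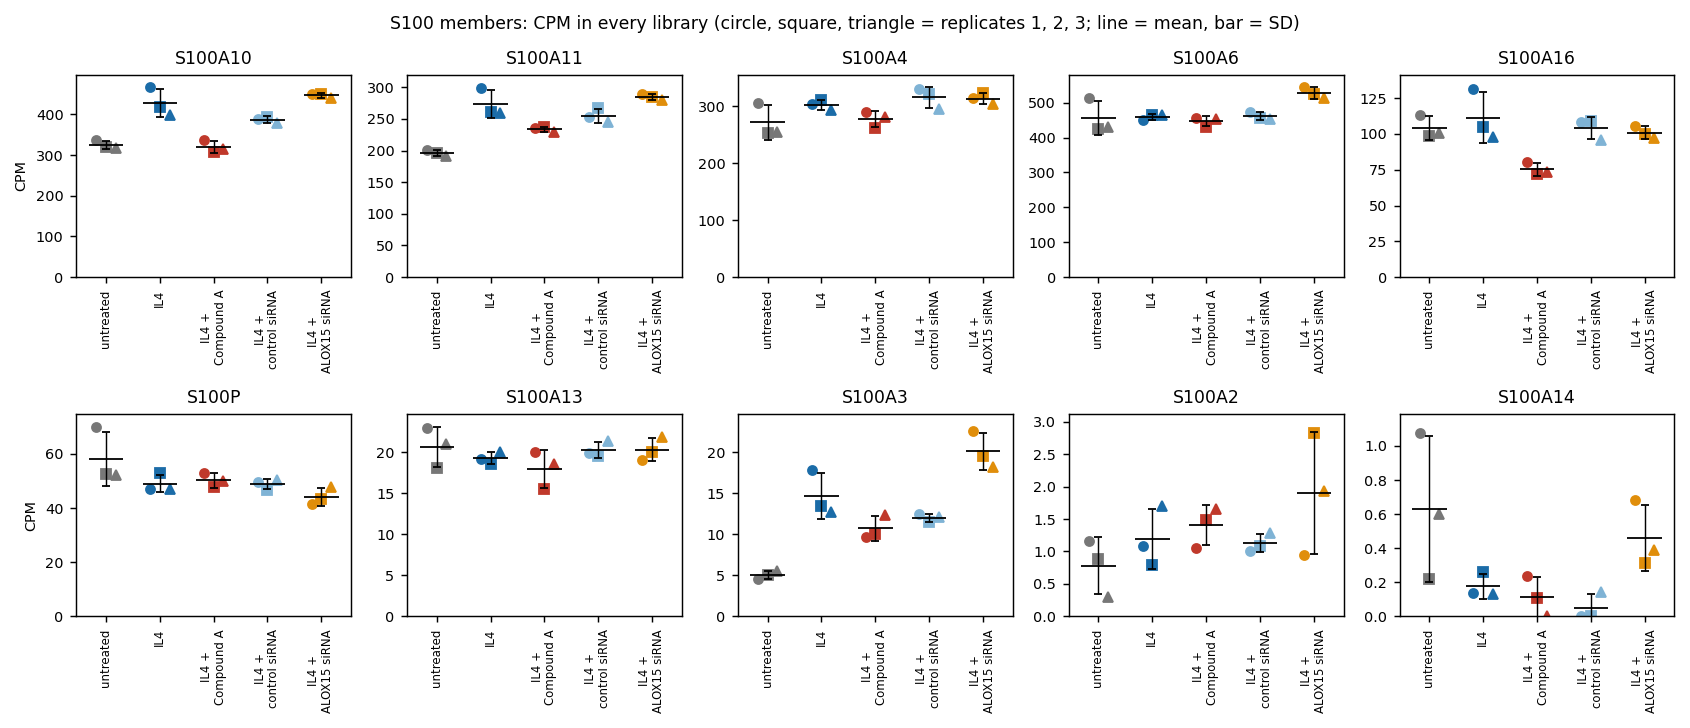
CPM (y axis, each panel from 0 on its own scale) of the 10 members in every library of the 5 groups, with symbols for replicates 1, 2 and 3, a line for the group mean and a bar for its SD. S100A3, S100A10 and S100A11 are lowest or near lowest in untreated cells, S100A16 is lowest with Compound A, and S100A2 and S100A14 sit at or below 2.83 CPM.

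With IL4 alone, 3 of the 9 tested members were higher than in untreated cells and none was lower. They were S100A3, at 2.93 times the untreated level, and the annexin-binding members S100A10 and S100A11, at 1.32 and 1.4 times. Over all genes tested, 22.9% were called in this comparison, 11.2% as higher and 11.6% as lower. The median log2 change of the 9 members was 0.15, against -0.02 over all genes. In bulk RNA a change in the share of cells that express a gene cannot be told apart from a change in RNA per cell.

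S100A10, or p11, has lost calcium binding of its own and forms a tetramer with annexin A2 that carries channels and plasminogen to the cell surface. Its levels in replicates 1, 2 and 3 were 337, 319 and 318 CPM in untreated cells and 466, 418 and 398.5 CPM with IL4. Every IL4 library was above every untreated library, which held for 33.5% of all genes in one direction or the other, and IL4 replicate 1 was the highest of the group. The log2 change was 0.40 (SE 0.06, adjusted p = 3e-05, edgeR's quasi-likelihood test with Benjamini-Hochberg adjustment over all genes tested, as for every adjusted p below).

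S100A11 binds annexin A1 and takes part in membrane repair and growth control in epithelia. It stood at 201, 196 and 191 CPM in untreated cells and at 299, 261 and 259.7 CPM with IL4. The ranges were again separate. On the log2 scale it was 0.48 higher (SE 0.06, adjusted p = 4.1e-06 by edgeR).

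S100A3, a cysteine-rich member best known from the hair cuticle, was at 4.57, 5.07 and 5.53 CPM in untreated cells and at 17.9, 13.5 and 12.7 CPM with IL4. These levels rest on 37 to 51 counts per untreated library and 97 to 131 counts per IL4 library. No IL4 library came near the untreated range. IL4 changed it by 1.55 on the log2 scale (SE 0.16, 95% interval 1.21 to 1.89, adjusted p = 4.1e-07 by edgeR). Without IL4 replicate 1 it was 1.39, and S100A10 and S100A11 changed by 0.33 and 0.41. Alongside these 3 members the summed level of the 6 fibroblast markers moved from a range of 9.15 to 11.4 CPM in untreated libraries to 19.3 to 27 CPM in IL4 libraries, carried by COL1A1, while COL1A2 was at 0 in every library. The 5 epithelial markers moved as well, from 5170 to 5850 CPM in untreated libraries to 8550 to 10500 CPM with IL4. Of the 5, 3 were called higher and 1 lower, where 11.2% and 11.6% of all genes were. The summed alveolar type II markers went from 39.2 to 39.9 CPM to 58.6 to 75.3 CPM, 1 of the 2 tested being called higher. The part of these lists in the result was not tested.

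The other 6 tested members did not pass the threshold with IL4. S100A6 (calcyclin), which binds the ubiquitin ligase adaptor CACYBP, gave 513, 425 and 431.5 CPM in untreated cells and 450, 465 and 464 CPM with IL4. Untreated replicate 1 was above every IL4 library and the other untreated libraries were below. Its log2 change was 0.01, with a 95% interval of -0.12 to 0.14.

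S100A4 (metastasin), which binds the heavy chain of non-muscle myosin IIA, gave 307, 253 and 255.5 CPM in untreated cells and 305, 310.5 and 293.5 CPM with IL4. Untreated replicate 1 lay within the IL4 range. The log2 change was 0.15 (adjusted p = 0.11, edgeR). Without untreated replicate 1 it was 0.27, with an adjusted p of 0.0036 by edgeR.

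S100P, first found in placenta and abundant in many carcinomas, gave 69.8, 52.8 and 52.3 CPM in untreated cells and 47.2, 52.8 and 47.1 CPM with IL4. The groups overlapped, and untreated replicate 1 was the highest library. The log2 change was -0.26 (adjusted p = 0.066, edgeR), and without that library -0.08 (adjusted p = 0.56). With the trend on transcript GC content or on transcript length removed it passed as lower, at -0.33 (adjusted p = 0.0056) and -0.29 (adjusted p = 0.031) by edgeR. S100P is the other member with the STAT6 spacing in its promoter.

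S100A16, a widely expressed member, gave 113, 98.4 and 101 CPM in untreated cells and 132, 105 and 97.55 CPM with IL4. The ranges overlapped. Its log2 change was 0.09, and it was -0.05 without IL4 replicate 1. S100A13, which helps export the signal-less cytokines FGF1 and IL1A, was at 22.95, 18.1 and 21.1 CPM in untreated cells and 19.2, 18.6 and 20.1 CPM with IL4. Every IL4 library fell inside the untreated range, and its log2 change was -0.10 (95% interval -0.34 to 0.13).

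S100A2, a partner of p53 found in basal epithelial cells, and S100A14, an epithelial member, were near the limit of detection. S100A2 had 13, 8 and 2 counts in untreated cells and 8, 6 and 13 with IL4. It passed the filter only through libraries in which it reached 1.34 CPM, 1 of them with IL4, 2 with Compound A and 2 with ALOX15 siRNA. Its log2 change of 0.49 had a 95% interval of -0.47 to 1.46. S100A14 had 12, 2 and 4 counts in untreated cells, 1, 2 and 1 with IL4, 2, 1 and 0 with Compound A, 0, 0 and 1 with control siRNA, and 5, 2 and 3 with ALOX15 siRNA. S100A14 did not reach the filter, so these 36 counts in 15 libraries were not tested. In the fit without a filter it passed in 1 comparison, control siRNA against untreated, as lower (adjusted p = 0.027, edgeR), on 1 count in all against 18.

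The libraries with IL4 and control siRNA gave the IL4 comparison a second set of IL4 libraries, against the same 3 untreated libraries. There 4 of 9 members were higher and 0 lower, while 19.3% of all genes tested were called, 9.93% as higher and 9.36% as lower. S100A3 was at 12.45, 11.5 and 12.1 CPM, S100A10 at 389, 394 and 378 CPM and S100A11 at 254, 267 and 244 CPM in the 3 control siRNA libraries. All of these lay above the untreated ranges. The log2 changes were 1.26 (SE 0.17, adjusted p = 1.1e-05), 0.25 (SE 0.06, adjusted p = 0.0032) and 0.38 (SE 0.06, adjusted p = 7.6e-05) by edgeR. S100A4 was the other call: its control siRNA libraries stood at 331, 321 and 295 CPM, overlapping untreated replicate 1, with a log2 change of 0.21 (SE 0.07, adjusted p = 0.034, edgeR). That call was lost without untreated replicate 2 or 3 or without control siRNA replicate 1 or 2, where the log2 change was 0.18 to 0.20 and the adjusted p 0.10 to 0.12 by edgeR. S100P stood at 49.6, 46.8 and 50.5 CPM, below every untreated library, with a log2 change of -0.26 (adjusted p = 0.075, edgeR). It passed as lower with IL4 replicate 1 left out of the shared fit, at -0.27 (adjusted p = 0.029), and with the GC trend removed, at -0.31 (adjusted p = 0.0092), and was at -0.09 without untreated replicate 1. Among all genes 36.9% had group ranges that did not overlap in this comparison, as did 4 of the 9 tested members and the untested S100A14.

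Between control siRNA and IL4 alone, edgeR called 0 members and 0.00% of all genes. At an unadjusted p under 0.05 it found 628 genes, 1 of them a member, and DESeq2 called 0 members and 2 genes in all. That member was S100A10, 0.14 lower in the control siRNA libraries on the log2 scale (log2 change -0.14, adjusted p = 0.9, edgeR). The ranges of S100A3 did not overlap either, with a log2 change of -0.29 (adjusted p = 0.9, edgeR). Ranges were separate in 8.60% of all genes and in these 2 members.

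With Compound A added to IL4, 4 of the 9 members were lower than with IL4 alone and 0 were higher. They were S100A16, S100A10, S100A3 and S100A11, and 3 of the 4 are the members that had risen with IL4. The comparisons share the IL4 libraries, so the pair of directions is not independent. Of all genes tested, 14.4% were called, 6.35% as higher and 8.07% as lower. That share was 23.3% without IL4 replicate 3, and 5.95% and 7.56% without Compound A replicates 2 and 3. The median log2 change of the 9 members was -0.13, against 0 over all genes.

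S100A16 was at 80.2, 71.9 and 73.6 CPM with Compound A, against 132, 105 and 97.55 CPM with IL4 alone. No library with Compound A reached the lowest library of any other group. This was a log2 change of -0.57 (SE 0.09, adjusted p = 0.00064, edgeR).

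S100A10 was at 336, 309 and 314.5 CPM with Compound A, overlapping the 318 to 337 CPM range of untreated cells, and below every IL4 library. The log2 change was -0.42 (SE 0.06, adjusted p = 0.00013, edgeR). S100A11, at 235, 236 and 229 CPM, came to lie between the untreated and the IL4 libraries without touching either. Its log2 change was -0.23 (SE 0.06, adjusted p = 0.015, edgeR).

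S100A3 was at 9.65, 10.1 and 12.4 CPM with Compound A. The highest of these was just below the lowest IL4 library, at 12.7 CPM. Its log2 change was -0.46 (SE 0.15, adjusted p = 0.038, edgeR). All 4 members were raised in IL4 replicate 1 relative to their IL4 mean, by 0.30 for S100A3, 0.25 for S100A16, 0.13 for S100A10 and 0.13 for S100A11 on the log2 scale. Without that library 2 calls were left, S100A10 at -0.35 (adjusted p = 1.3e-05) and S100A16 at -0.43 (adjusted p = 0.00016) by edgeR. That fit called 9.8% of all genes, against 14.4% with all libraries. S100A3 was then at -0.30 (adjusted p = 0.23) and S100A11 at -0.16 (adjusted p = 0.056). The call of S100A3 was lost in 6 of 16 alternative analyses and that of S100A11 in 3 of 16. Those of S100A10 and S100A16 were lost in 0 of 16.

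Against the control siRNA libraries, 2 of 9 members were lower with Compound A, at a background of 5.28% of all genes called, 1.86% as higher and 3.42% as lower. IL4 replicate 1 is in neither group but enters the shared estimate of the spread. With it left out, 12.7% of all genes and 3 members were called, S100A4 being the added one at -0.18 (adjusted p = 0.042, edgeR). Leaving out 1 library of these groups gave 1.7% to 4.16% of all genes. The 2 members called in the fit of all libraries were S100A16 at -0.47 (SE 0.09, adjusted p = 0.006) and S100A10 at -0.27 (SE 0.06, adjusted p = 0.0078) by edgeR. The control siRNA libraries of S100A16 stood at 108, 109 and 95.6 CPM, all above those with Compound A. Without Compound A replicate 2 the adjusted p rose to 0.054 for S100A16 and 0.069 for S100A10, and without Compound A replicate 3 to 0.055 for S100A10. S100A11 and S100A4 also had libraries below those with control siRNA, at log2 changes of -0.13 (adjusted p = 0.24) and -0.19 (adjusted p = 0.14). S100A3 overlapped, at -0.18 (adjusted p = 0.54). Libraries did not overlap in 30.6% of all genes and in 4 of the 9 members. The groups in this comparison differ by the siRNA as well as by Compound A.

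**Figure D2:**
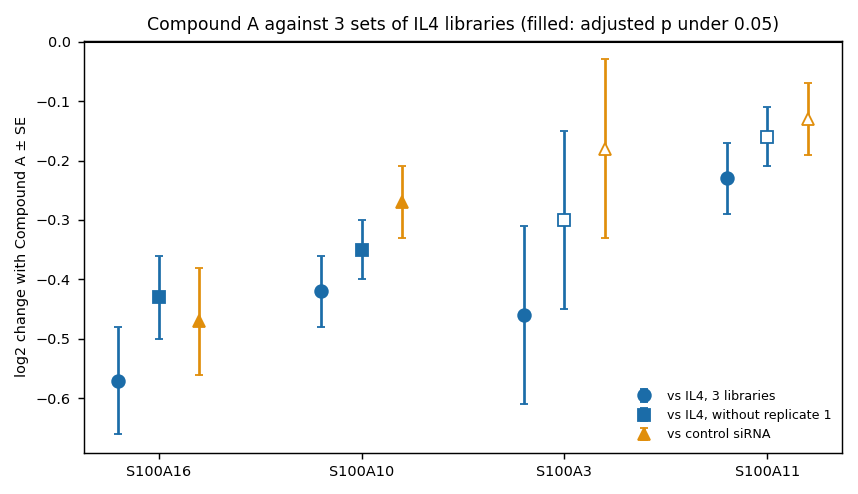
Log2 change with Compound A (y axis, bars are SE) of the 4 members called against IL4 alone, measured against all 3 IL4 libraries, against IL4 without replicate 1, and against IL4 with control siRNA. Filled symbols passed an adjusted p of 0.05 in edgeR: S100A16 and S100A10 are filled in all 3 settings, S100A3 and S100A11 in the first.

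The other members did not pass the threshold with Compound A. S100A6 stood at 455, 431 and 454 CPM, within or just below its IL4 range, with a log2 change of -0.04 (95% interval -0.17 to 0.09). S100A4, at 290, 263 and 281 CPM, lay below all 3 IL4 libraries, with a log2 change of -0.13 (adjusted p = 0.22, edgeR). Libraries did not overlap in 31.9% of all genes and in 5 of the 9 members, S100A4 among them. S100P was at 53.1, 47.8 and 49.9 CPM, S100A13 at 20, 15.5 and 18.6 CPM, and S100A2 had 9, 14 and 11 counts, each overlapping IL4 alone. The fibroblast list summed to 9.56 to 12.7 CPM with Compound A, against 19.3 to 27 CPM with IL4. The epithelial list summed to 7340 to 8200 CPM, against 8550 to 10500 CPM. Of its 5 genes 4 were called lower, where 8.07% of all genes were. Against control siRNA 1 of the 5 was called lower, where 3.42% of all genes were. The part of these lists in the results was not tested.

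With ALOX15 siRNA, S100A3 alone among the 9 members was called against control siRNA, and it was higher. It reached 22.6, 19.5 and 18.2 CPM, its highest level in any group, against 12.45, 11.5 and 12.1 CPM with control siRNA. This was a log2 change of 0.74 (SE 0.14, 95% interval 0.44 to 1.04, adjusted p = 0.012, edgeR). Of all genes tested, 0.696% were called, 0.313% as higher and 0.383% as lower. That share was 2.1% with IL4 replicate 1 left out of the shared fit, 2.63% when only the 2 siRNA groups were fitted, and 0.271% to 0.402% without 1 library of these groups. The call was lost when most single libraries of these groups were left out. Leaving out any 1 of the 6 except ALOX15 siRNA replicate 3 gave a log2 change of 0.65 to 0.76 and an adjusted p of 0.052 to 0.11 by edgeR.

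S100A6, S100A10 and S100A11 also had their ALOX15 siRNA libraries wholly above those with control siRNA. S100A6 gave 546, 525 and 512 CPM against 474, 456 and 454 CPM. S100A10 gave 450.1, 449 and 441 CPM, and S100A11 gave 289, 284 and 279 CPM. Their log2 changes of 0.19, 0.21 and 0.16 did not pass, at adjusted p of 0.22, 0.13 and 0.36 by edgeR. When only the 2 siRNA groups were fitted, S100A6 and S100A10 did pass, at 0.0062 and 0.0029, in a fit that called 2.63% of all genes. When IL4 replicate 1 was left out of the shared fit, they passed at 0.043 and 0.0073, with 2.1% of all genes called. Libraries did not overlap in 18.7% of all genes, in these 4 of the 9 tested members and in the untested S100A14.

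The response of S100A3, S100A10, S100A11 and S100A16 to Compound A differed from their response to ALOX15 siRNA. The difference of the log2 changes, each taken against its own IL4 control group, was -1.21 (SE 0.20, adjusted p = 0.0013) for S100A3, -0.63 (SE 0.08, adjusted p = 0.00012) for S100A10, -0.38 (SE 0.08, adjusted p = 0.0094) for S100A11 and -0.52 (SE 0.13, adjusted p = 0.027) for S100A16, by edgeR. So 4 of 9 members were called and all 4 were lower with Compound A relative to ALOX15 siRNA, against 5.14% of all genes called, 1.94% as higher and 3.20% as lower. For S100A3, S100A10 and S100A11 the point estimates had opposite signs, lower with Compound A and higher with ALOX15 siRNA. For S100A16 the ALOX15 siRNA libraries, at 106, 100.1 and 96.8 CPM, overlapped those with control siRNA (log2 change -0.05, 95% interval -0.24 to 0.15). Without IL4 replicate 1 all 4 differences passed, at -1.04, -0.56, -0.31 and -0.38. The call of S100A16 was lost without any 1 of 5 libraries, namely replicates 2 and 3 with Compound A, replicate 3 with control siRNA, and replicates 1 and 2 with ALOX15 siRNA, at an adjusted p of 0.057 to 0.091 by edgeR.

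The remaining members had no call in the ALOX15 siRNA comparison. S100A4 stood at 314, 323 and 304 CPM, inside its control siRNA range, and S100A13 at 19.1, 20.1 and 21.8 CPM overlapped it. S100P was at 41.4, 43.2 and 47.8 CPM, its lowest group mean of the 5, with a log2 change of -0.15 (adjusted p = 0.75, edgeR). S100A2 had 7, 18 and 15 counts, against 7, 7 and 9 with control siRNA, and its log2 change of 0.72 had a 95% interval of -0.17 to 1.62.

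**Figure D3:**
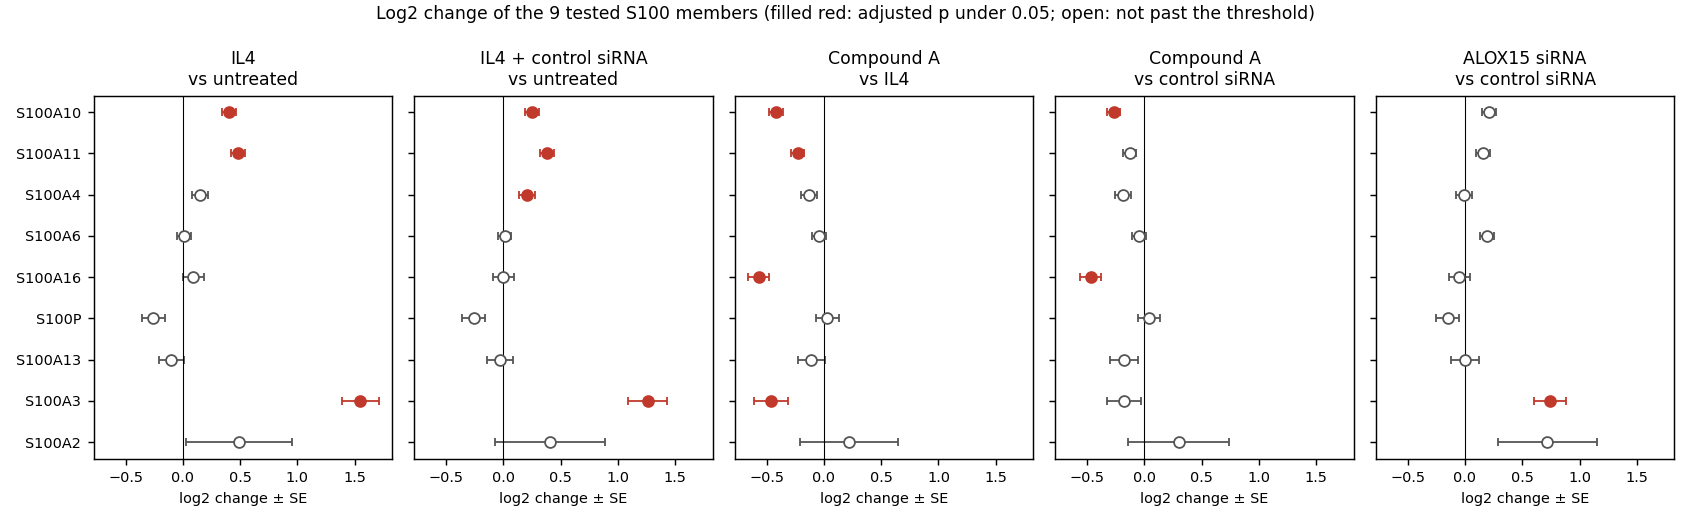
Log2 change (x axis, bars are SE) of the 9 tested members in 5 comparisons from the fit of all 15 libraries, with filled red points for an adjusted p under 0.05 in edgeR. S100A3 has the largest change with IL4, at 1.55, and is the only filled point for ALOX15 siRNA, at 0.74, while S100A16 is filled in both comparisons of Compound A, at -0.57 and -0.47.

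Over the 5 groups the order of levels set the members apart. S100A3 was highest with ALOX15 siRNA and next with IL4, followed by control siRNA and Compound A, whose ranges overlapped, and it was lowest untreated. Its highest group mean was 3.98 times its lowest. S100A11 was likewise lowest untreated and next lowest with Compound A, with the 3 other groups overlapping in turn, a span of 1.45 times. S100A10 spanned 1.4 times, with untreated and Compound A overlapping at the bottom. S100A16 spanned 1.48 times, with 75.2 CPM in the group with Compound A and group means of 101 to 111 CPM in the other 4, which overlapped one with the next. S100A6, S100A4, S100A13 and S100P spanned 1.18, 1.16, 1.15 and 1.32 times.

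The 3 genes nearest in profile were sought for each member whose group means of log2 CPM ranged over at least 0.5. Likeness was the root mean square difference over the 5 group means, each centred on its gene's mean. Near S100A3 were MIR503HG at 0.11 and RGS2, a regulator of G protein signalling, at 0.13. Nearest S100A11 were DUSP7 at 0.017, ARHGEF18 at 0.018 and PITPNM3 at 0.019, and nearest S100A16 were OAS3 at 0.025, ARHGDIA at 0.03 and KLF4 at 0.032. OAS3 is an interferon-induced antiviral enzyme, and KLF4 an epithelial transcription factor. For S100A2, whose few counts leave its profile uncertain, they were MEIOB at 0.046, ADAMTS1 at 0.069 and RPS6KA2 at 0.073. The measure compares group means only, so it carries no test.

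**Figure D4:**
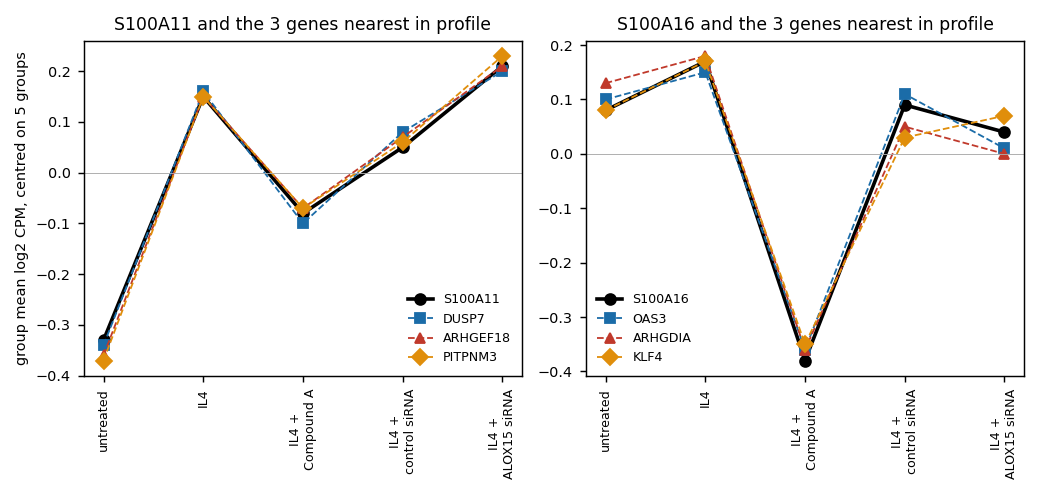
Group means of log2 CPM, centred on the mean of the 5 groups (y axis), for S100A11 and S100A16 in black and for the 3 genes nearest to each in profile in colour. S100A11 runs from -0.33 in untreated cells to 0.21 with ALOX15 siRNA, and S100A16 drops to -0.38 with Compound A and lies between 0.04 and 0.17 in the other groups.

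The proteins that S100 members dock onto were read from the same fit. Of 18 partner genes, 16 were tested. With IL4, 7 were higher and 1 was lower, where 11.2% and 11.6% of all genes were, with a median log2 change of 0.13 against -0.02 over all genes. MYH9, the myosin bound by S100A4, changed by 0.56 (adjusted p = 1.9e-07), and AHNAK, a large scaffold bound by S100A10 with annexin A2, by 0.46 (adjusted p = 1.9e-05). NCL, the nucleolin bound by S100A11, changed by -0.26 (adjusted p = 0.00046), all by edgeR. With Compound A against IL4, 1 was higher and 5 were lower, where 6.35% and 8.07% of all genes were, at a median of -0.07 against 0. EZR, the ezrin bound by S100P, changed by -0.34 (adjusted p = 0.00031) and AHNAK by -0.30 (adjusted p = 0.004), while PPFIBP1, a liprin bound by S100A4, changed by 0.25 (adjusted p = 0.031). With Compound A against control siRNA, 0 were higher and 4 were lower, where 1.86% and 3.42% of all genes were. With ALOX15 siRNA edgeR called 0 of the 16, with 3 at an unadjusted p under 0.05, and DESeq2 called 0. Annexin A2, picked out after its values were seen because it is the obligate partner of S100A10, had group means of 2040 CPM untreated, 2540 with IL4, 2130 with Compound A, 2440 with control siRNA and 2630 with ALOX15 siRNA. ANXA2 changed by 0.31 with IL4 (adjusted p = 1.02e-05) and by -0.25 with Compound A (adjusted p = 0.000546) by edgeR.

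Of 7 receptors of released S100 proteins, 5 were tested. With IL4 edgeR called 0 of them, where 22.9% of all genes were called, with 2 at an unadjusted p under 0.05. DESeq2 called 0. In control siRNA against untreated, edgeR called 1 as higher, MCAM at 0.64 (adjusted p = 0.0036), where 9.93% of all genes were. DESeq2 also called 1 there. With Compound A against IL4, 2 of the 5 were lower, where 8.07% of all genes were. They were BSG (basigin), a receptor of S100A9, at -0.33 (adjusted p = 0.0024), and MCAM, a receptor of S100A8 and S100A9, at -0.64 (adjusted p = 0.0099), by edgeR. The ligands of both were silent or nearly so, as given above. With Compound A against control siRNA, 1 of the 5 was called lower, MCAM, where 3.42% of all genes were. AGER, which encodes RAGE, a receptor of S100P, had group means of 0.806 to 1.39 CPM.

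Other EF-hand proteins were set beside the S100 genes. Of 29 listed, 23 were tested, and with IL4 8 were higher and 0 lower, where 11.2% and 11.6% of all genes were, at a median of 0.25 against -0.02 over all genes. One of the 8 was HPCAL1, a neuronal calcium sensor protein, at 0.45 (adjusted p = 0.0079) by edgeR. With Compound A against IL4, 2 were higher, CHP1 at 0.27 and RCN2 at 0.26, and 4 were lower, among them SDF4 at -0.29 and NCS1 at -0.33, with adjusted p of 0.003, 0.028, 0.034 and 0.025 by edgeR, where 14.4% of all genes were called. With Compound A against control siRNA, 1 was higher and 0 were lower, where 1.86% and 3.42% of all genes were. With ALOX15 siRNA edgeR called 0 of 23, with 1 at an unadjusted p under 0.05, and DESeq2 called 1. None of the 7 S100-fused genes of the same chromosome 1 complex, which encode cornified envelope proteins such as filaggrin, passed the filter on low counts.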

How the data were processed

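The deposited table held expected counts per gene, which the authors made with Bowtie2 2.1.0 and RSEM 1.2.15 on hg38, per the submitters' processing notes. No source used here gives the annotation, strand setting or read length. The values were rounded to whole numbers. The members' counts were whole in every library as deposited. The table has 26475 rows and 15 libraries in 5 groups of 3, with groups and replicate numbers taken from the sample titles.

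Genes were kept by edgeR's filterByExpr (minimum count 10, about 1.34 CPM at the median depth), which left 12795, and libraries were scaled by TMM. A robust quasi-likelihood fit (edgeR 4.0.16, R 4.3.3) with 1 coefficient per group over all 15 libraries gave log2 changes, standard errors and Benjamini-Hochberg adjusted p over all genes tested, with a threshold of 0.05. Log2 CPM used a prior count of 2. The fit was also run on simulated counts, drawn independently, with a small set of changed genes and no outlying library. These settings differ from the data, so that run does not bear on the calls given here. P-values measure the spread between the deposited libraries, which may be technical. Transcript lengths and positions came from GENCODE, and promoter sequences from RefSeq, where all 10 members matched.

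The members and all gene lists were chosen with earlier results of these data known. Named genes were all members, the 3 nearest in profile to each member ranging over 0.5 or more (among genes of at least 1 CPM), and for each list the called genes with the largest and smallest changes; a few genes these rules name are not reported here. As alternatives, DESeq2 1.42.0 replaced edgeR, RLE or upper-quartile factors replaced TMM, the filter was dropped or set at 1 CPM in 3 libraries, and other fits took only the groups compared, a replicate block, unrounded counts, each library left out in turn, or a fold threshold of 1.5. Removal of trends with transcript GC content or length (known for 95.1% of genes tested) and leaving IL4 replicate 1 out of the shared fit were added after seeing the data.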

Additional observations from a re-analysis of the deposited data

How the results depend on the processing

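Each comparison was read again under each alternative setting. The count of called members kept to within 1.5 times the main count in 111 such pairs and moved further in 17. A fall from 4 to 3 members is scored as kept. So are the pairs for control siRNA against IL4, where the main count was 0. With a fold of at least 1.5 also required, the count fell from 3 to 1 for IL4, from 4 to 1 for control siRNA against untreated, from 4 to 0 for Compound A against IL4, from 2 to 0 for Compound A against control siRNA, and from 4 to 2 for the difference between Compound A and ALOX15 siRNA. The share of all genes called at that fold is not given here. Fitting only the groups compared gave 2 members in place of 4 for Compound A against IL4, where the whole table fell from 813 higher and 1033 lower to 130 and 267, and 3 in place of 1 for ALOX15 siRNA, where it rose from 40 and 49 to 172 and 153. The latter was also 3 without IL4 replicate 1 in the shared fit (148 and 124 in the table), and 4 with the GC trend removed (150 and 143). Leaving out 1 library of the groups compared gave 3 to 4 members for IL4, 2 to 4 for Compound A against IL4, 0 to 1 for ALOX15 siRNA, 3 to 4 for control siRNA against untreated, 0 to 2 for Compound A against control siRNA, 3 to 4 for the difference, and 0 for control siRNA against IL4. In these fits the share of all genes called was 15.3% to 25.6% for IL4 and 5.95% to 23.3% for Compound A against IL4. It was 0.271% to 0.402% for ALOX15 siRNA and 14.1% to 16.6% for control siRNA against untreated. For Compound A against control siRNA it was 1.7% to 4.16%, for the difference 2.51% to 8.92%, and for control siRNA against IL4 0%. Such fits have fewer libraries. Without a filter, control siRNA against untreated gave 5 members, S100A14 being the fifth. It also gave 5, with S100P, without IL4 replicate 1 in the shared fit or with the GC trend removed. These fits called 12.2%, 26.4% and 27.4% of all genes in that order, against 19.3% in the main fit. Not every member was followed through the alternatives in every comparison. Among those followed, the sign of small changes turned in 8 cases, none of them called. With IL4, S100A6 was at -0.02 and -0.01 without untreated replicate 2 or 3, -0.12 with the GC trend and -0.03 with the length trend removed (0.12 without untreated replicate 1). S100A13 ranged from -0.19 with the GC trend removed (-0.17 without untreated replicate 2) to 0.01 without untreated replicate 1. S100A16 ranged from -0.05 without IL4 replicate 1 to 0.18 without untreated replicate 1, and was at -0.03 with the GC trend removed. With Compound A, S100A6 was at 0.11 with the GC trend removed. The cause of these changes was not tested. With the replicate number as a block, the counts were 3 for IL4, 4 for Compound A against IL4, 1 for ALOX15 siRNA, 0 for control siRNA against IL4, 4 for control siRNA against untreated, 2 for Compound A against control siRNA and 4 for the difference, as without it, while the whole table rose, for Compound A against IL4 from 813 and 1033 to 1183 and 1325. The numbers were not taken as a pairing: deviations of same-numbered libraries correlated at -0.13 to 0.29 (median 0.02, 30 pairs), so not every pair was over 0.1. On average 9 of 15 libraries correlated best with their own number, where an even split gives 5. Depth limits S100A2 and S100A14, with 147 and 36 counts in all libraries together.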
